A study of Mus musculus with 6 samples.

Results

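The NF-kB genes described here are the 5 subunit genes (Rela, Rel, Relb, Nfkb1 and Nfkb2), 4 genes of the IkB inhibitor family (Nfkbia, Nfkbib, Nfkbie and Nfkbiz) and Tnfaip3, which encodes the feedback inhibitor A20. They were chosen by gene symbol, and all 10 were found among the 48897 genes of the deposited table. RNA was measured in liver sinusoidal endothelial cells from C57BL/6 mice aged 7 to 8 weeks, taken 14 days after partial hepatectomy (PHx, in which a portion of the liver is removed) or a sham procedure (Sham). Each group held 3 libraries, numbered 1, 3 and 4. The cells were enriched with magnetic beads against CD146, the product of Mcam, so other cell types can be carried along. The labels do not say whether each library came from its own animal, so p-values measure only the spread between these libraries. In such bulk RNA, fewer cells of a type and less RNA per cell cannot be told apart.

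NF-kB is a family of dimeric transcription factors that IkB proteins hold inactive in the cytoplasm. Signals from receptors for TNF, interleukin 1 or bacterial products lead to the destruction of IkB and let the dimers enter the nucleus, where they switch on genes of inflammation and their own inhibitors. In endothelial cells, which face the blood, the pathway is known for inducing adhesion molecules and chemokines.

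None of the 10 genes passed the test between PHx and Sham at an adjusted p under 0.05 (edgeR's quasi-likelihood test with Benjamini-Hochberg adjustment over 19033 genes), where 0.862% of all tested genes did. DESeq2 also called none of the 10, against 4.24% of the 19149 genes with a DESeq2 adjusted p. At an unadjusted p under 0.05 edgeR gave 0 of the 10, against 12.7% of all tested genes. DESeq2 gave 3 at that level, against 9.39% of 31682 genes, a wider pool without the filter on low counts. For none of the 10 did the PHx and Sham libraries separate without overlap, as 20.5% of tested genes did. Every one of the 10 was highest in the library PHx 4, which was the highest library for 26.6% of all tested genes. Their median log2 fold change (PHx over Sham) was 0.38 with all libraries and 0.03 without PHx 4, beside 0.03 and 0.02 for all tested genes. With all libraries 9 of the 10 log2 fold changes were above 0, as were 53% of all tested genes, and without PHx 4 this held for 5, and for 52.5% of all. Because PHx 4 was the highest library for all 10, leaving it out was bound to lower their fold changes, here and below. Such a fall shows how much rests on PHx 4 and does not test a difference between PHx and Sham.

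PHx 4 also had the highest sums of neutrophil markers and immediate early genes and the lowest sum of endothelial markers. The 12 neutrophil markers summed to 766, 34.4 and 4480 CPM (counts scaled to a common library size) in PHx 1, 3 and 4, against 434, 228 and 45.7 CPM in Sham 1, 3 and 4. The 16 immediate early genes, which respond within minutes to stress and handling, summed to 8539, 15866 and 22474 CPM in PHx 1, 3 and 4, against 15389, 6621 and 17936 CPM in Sham 1, 3 and 4. The 12 endothelial markers summed to between 18355 and 28998 CPM in PHx, lowest in PHx 4, and to between 33247 and 35927 CPM in Sham. Kupffer cell markers summed to 244 to 311 CPM in PHx and 176 to 631 CPM in Sham, hepatocyte markers to 806 to 1803 CPM in PHx and 1495 to 2071 CPM in Sham, B cell markers to 5.89 to 7.99 CPM in PHx and 5.45 to 12.0 CPM in Sham, and T and NK cell markers to 5.85 to 17.7 CPM in PHx and 10.5 to 20.3 CPM in Sham. Within the Kupffer cell list PHx 4 was the lowest library for Clec4f (3.52 CPM), Timd4, Vsig4 and Cd5l. It was the highest for C1qa and C1qb (48.6 and 88.9 CPM). No marker of the lists above was at 0 in all libraries. The part of such cells or of handling in the NF-kB values was not tested. Mcam stood at 334 to 408 CPM in PHx and 280 to 374 CPM in Sham, and total counts were between 38765116 and 51888481 per library.

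**Figure D1:**
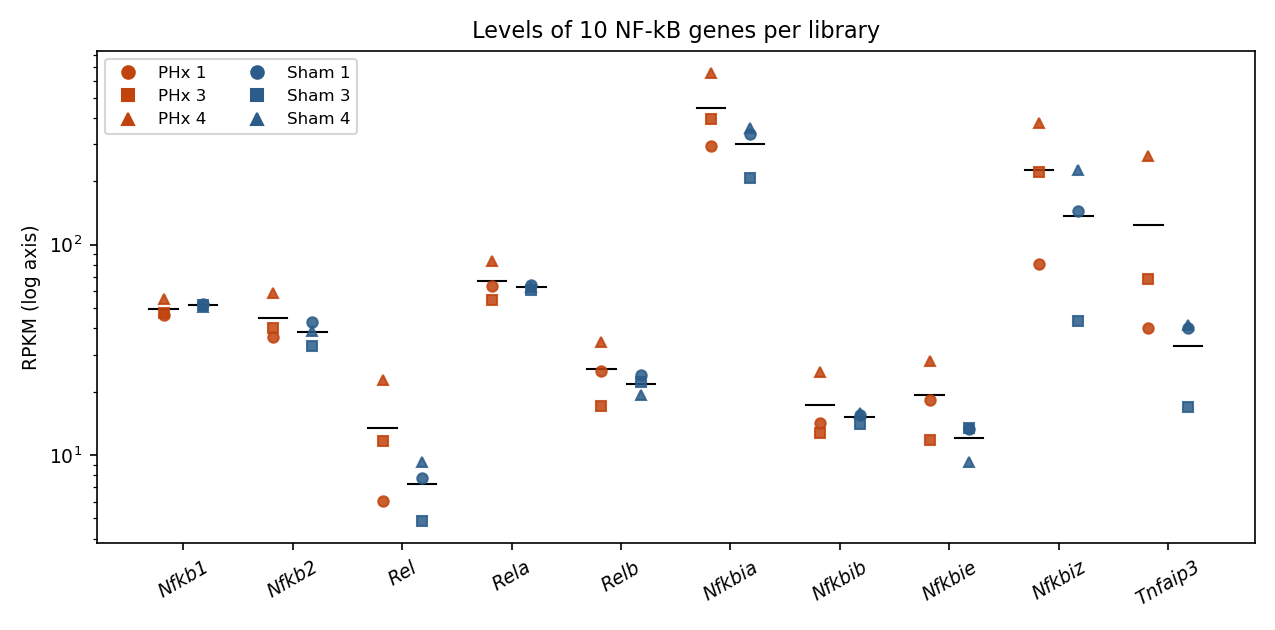
RPKM of the 10 NF-kB genes on a log axis, with PHx libraries left (orange) and Sham libraries right (blue) within each gene, a marker shape per replicate number and a black line at the group mean. The triangle of PHx 4 is the highest point for every gene, reaching 265 RPKM for Tnfaip3 and 653 RPKM for Nfkbia.

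Levels are compared between genes per length, as the deposited RPKM (counts scaled by gene length and library total). In the group means Nfkbia and Nfkbiz led in both groups, and Rel was the least abundant. Tnfaip3 averaged 124 ± 122 RPKM in PHx and 32.8 ± 13.7 RPKM in Sham (SD, n = 3), so its mean stood above every subunit in PHx, where PHx 4 raised it, and below Rela, Nfkb1 and Nfkb2 in Sham. Among the subunits the order was Rela, Nfkb1, Nfkb2, Relb and Rel in both groups.

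Rela encodes p65, the activating partner of p50 in the most common dimer. The gene lies on chromosome 19 (5637440 to 5648131, mm10). It had 63.8, 54.2 and 83.5 RPKM in PHx 1, 3 and 4, against 64.5, 60.6 and 62.7 RPKM in Sham 1, 3 and 4. The Sham libraries were within 1.09-fold of each other on TMM-scaled CPM, while PHx 1 and PHx 3 lay below and PHx 4 above all of them. The log2 fold change was 0.07 ± 0.17 (SE, 3 libraries per group) with an edgeR adjusted p of 0.893, and it was -0.14 without PHx 4.

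Nfkb1 encodes the precursor of the p50 subunit, which binds DNA but lacks an activation domain of its own. On chromosome 3 (135584655 to 135691982), it had 46.4, 47.3 and 54.8 RPKM in PHx 1, 3 and 4, against 52.3, 51.8 and 50.5 RPKM in Sham 1, 3 and 4. It was the steadiest of the 10, with Sham libraries within 1.05-fold and PHx libraries within 1.27-fold. Of all tested genes, 3.92% had a smaller SD of log2 CPM among the Sham libraries and 27.8% among the PHx libraries. The mean CPM of Nfkb1 was above that of 95.8% of tested genes, and this comparison was not matched for level. By TMM-scaled CPM PHx 1 and PHx 3 lay below all Sham libraries and PHx 4 above them. Its log2 fold change was -0.09 ± 0.12 (edgeR adjusted p = 0.768), and -0.19 without PHx 4. The annotated span of Nfkb1 overlaps 2 other genes of the table, 1 of them on the same strand, so reads in the shared stretches may not be told apart.

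Nfkb2 encodes the precursor of p52, the partner of RelB in the slower, non-canonical branch of the pathway. On chromosome 19 (46304320 to 46312090), it had 36.2, 40.2 and 58.6 RPKM in PHx 1, 3 and 4, against 42.7, 33.0 and 39.0 RPKM in Sham 1, 3 and 4. PHx 1 and PHx 3 lay within the Sham range and PHx 4 above it. Its log2 fold change was 0.20 ± 0.21 (edgeR adjusted p = 0.710), and -0.05 without PHx 4. Nfkb2 also overlaps 2 other annotated genes.

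Relb, on chromosome 7 (19606217 to 19629438), showed 24.9, 17.1 and 34.5 RPKM in PHx 1, 3 and 4, against 24.0, 22.2 and 19.3 RPKM in Sham 1, 3 and 4. PHx 3 was the lowest library and PHx 4 the highest. Its log2 fold change was 0.19 ± 0.25 (edgeR adjusted p = 0.777), and -0.12 without PHx 4.

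Rel encodes c-Rel, a subunit known mainly from lymphocytes and myeloid cells. On chromosome 11 (23741729 to 23770970), it had 6.04, 11.7 and 22.7 RPKM in PHx 1, 3 and 4, against 7.73, 4.86 and 9.21 RPKM in Sham 1, 3 and 4. PHx 3 and PHx 4 exceeded all Sham libraries, and PHx 1 lay between Sham 3 and Sham 1. The log2 fold change was 0.87 ± 0.53 (edgeR adjusted p = 0.538), and 0.25 without PHx 4. Ptprc, the gene of the leukocyte surface protein CD45, stood at 80.5, 17.5 and 179 CPM in PHx 1, 3 and 4, against 71.0, 34.0 and 24.3 CPM in Sham 1, 3 and 4. The 9 monocyte and dendritic cell markers, Ptprc among them, summed to 176, 44.0 and 428 CPM in PHx 1, 3 and 4. In Sham 1, 3 and 4 they summed to 120, 61.9 and 44.1 CPM. Ptprc and Itgam, at 179 and 197 CPM, made up most of the sum in PHx 4. Only 4 of the 9 were highest in PHx 4, and their mean log2 CPM was 2.89, 1.19 and 2.82 in PHx 1, 3 and 4. The part of leukocytes in the Rel values was not tested.

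As a share of the summed RPKM of the 5 subunits, Rela took 33.6 ± 2.16% in PHx and 34.5 ± 0.721% in Sham (SD, n = 3 libraries per group). Nfkb1 took 25.1 ± 3.20% in PHx and 28.4 ± 1.41% in Sham, and Rel 6.40 ± 2.80% in PHx and 3.99 ± 1.14% in Sham. Nfkb2 took 22.3 ± 1.69% in PHx and 21.0 ± 1.67% in Sham, and Relb 12.5 ± 2.21% in PHx and 12.0 ± 1.18% in Sham. Rel in PHx 1 had a share of 3.40%, inside the Sham range of 2.82% to 5.10%, while PHx 3 and PHx 4 had 6.85% and 8.95%. The sum of the 5 subunits was 177, 170 and 254 RPKM in PHx 1, 3 and 4, against 191, 172 and 181 RPKM in Sham 1, 3 and 4.

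NF-kB dimers are known to bind the promoters of several of their own inhibitors, and the 250 bases before a RefSeq start were read for the members that the RefSeq promoter table holds (GRCm38.p6, 7 of 10, without Nfkb1, Relb and Nfkbiz). Where RefSeq gives several starts, the one nearest to the deposited start was taken. It lay within 1 base of the deposited start except for Rela, 101 bases away, and Nfkb2, 417 bases away, both inside the deposited span. The Rela window therefore lies partly, and the Nfkb2 window wholly, within the deposited span of its gene. The sequences below are shown because Nfkbia, Tnfaip3 and Rel hold matches to an NF-kB motif and Nfkbib holds none. Whether a match goes with the spread between libraries was not tested. Capitals mark a match on either strand to the kB consensus, a motif of 10 letters, or to the overlapping, looser GGNNNTTCC.
Nfkbia, chr12:55492648-55492897, minus strand: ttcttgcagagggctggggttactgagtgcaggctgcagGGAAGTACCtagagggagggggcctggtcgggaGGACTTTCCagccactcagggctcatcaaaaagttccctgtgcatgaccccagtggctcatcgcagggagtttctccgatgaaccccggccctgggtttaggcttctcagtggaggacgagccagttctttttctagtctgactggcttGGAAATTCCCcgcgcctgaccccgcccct
Tnfaip3, chr10:19015411-19015660, minus strand: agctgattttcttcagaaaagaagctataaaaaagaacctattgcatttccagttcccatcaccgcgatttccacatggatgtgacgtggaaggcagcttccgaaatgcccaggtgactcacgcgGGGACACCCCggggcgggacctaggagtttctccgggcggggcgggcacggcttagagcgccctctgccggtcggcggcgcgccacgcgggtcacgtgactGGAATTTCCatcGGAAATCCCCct
Rel, chr11:23770970-23771219, minus strand: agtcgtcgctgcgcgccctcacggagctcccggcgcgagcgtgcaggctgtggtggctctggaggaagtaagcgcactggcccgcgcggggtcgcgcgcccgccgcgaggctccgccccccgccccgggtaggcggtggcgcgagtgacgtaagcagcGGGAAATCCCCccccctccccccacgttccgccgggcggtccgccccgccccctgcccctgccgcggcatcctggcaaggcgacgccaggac
Nfkbib, chr7:28766645-28766894, minus strand: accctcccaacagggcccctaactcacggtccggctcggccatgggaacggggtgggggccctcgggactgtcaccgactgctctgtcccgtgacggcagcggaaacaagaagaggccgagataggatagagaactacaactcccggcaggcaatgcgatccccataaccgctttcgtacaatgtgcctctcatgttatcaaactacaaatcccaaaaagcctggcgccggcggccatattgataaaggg

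The kB consensus was found in the windows of Nfkbia, Tnfaip3, Rel, Nfkb2 and Nfkbie, that is 5 of the 7 members read. It was in 3.90% of all 32851 promoter windows of that length, and 4.46% of the 27025 genes had it in at least 1 window. GGNNNTTCC was found in the same 5 members, in 15.7% of all windows and in at least 1 window of 17.6% of genes. Tnfaip3 had 2 windows in the table, of which 1 held the consensus, and Nfkb2 had 3, all with it. In Nfkbia the consensus match ended 20 bases before the RefSeq start, and in Tnfaip3 the nearest ended 3 bases before it. Neither motif was in the window of Rela or Nfkbib. A match describes the letters of the window only, and binding was not measured in these libraries.

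Nfkbia encodes IkB-alpha, which is destroyed on stimulation and made again within the hour as a direct NF-kB target. On chromosome 12 (55489409 to 55492647), it had 295, 395 and 653 RPKM in PHx 1, 3 and 4, against 335, 207 and 359.8 RPKM in Sham 1, 3 and 4. PHx 3 and PHx 4 were above all Sham libraries, and PHx 1 was below Sham 1 and Sham 4. The means were 448 ± 185 RPKM in PHx and 300.3 ± 82.2 RPKM in Sham (SD, n = 3). The log2 fold change was 0.55 ± 0.36 with an edgeR adjusted p of 0.551, and 0.15 without PHx 4. The ratio of Nfkbia to Rela RPKM was 4.62, 7.28 and 7.82 in PHx 1, 3 and 4, against 5.19, 3.41 and 5.74 in Sham 1, 3 and 4. Together Nfkbia, Nfkbib and Nfkbie had 1.84, 2.46 and 2.78 times the summed RPKM of the 5 subunits in PHx 1, 3 and 4, against 1.90, 1.36 and 2.13 times in Sham 1, 3 and 4.

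Tnfaip3 encodes A20, a ubiquitin-editing enzyme that ends signalling from the TNF and Toll-like receptors. On chromosome 10 (19000910 to 19015410), it had 40.3, 68.6 and 265 RPKM in PHx 1, 3 and 4, against 39.9, 16.9 and 41.4 RPKM in Sham 1, 3 and 4. PHx 3 and PHx 4 lay above all Sham libraries and PHx 1 did not, and PHx 4 was 7.06-fold above PHx 1 on TMM-scaled CPM. The log2 fold change of 1.91 ± 0.84 was the largest of the 10, with an edgeR adjusted p of 0.427, and without PHx 4 it was 0.69 ± 0.49. Neutrophil markers summed to 766, 34.4 and 4480 CPM in PHx 1, 3 and 4, against 434, 228 and 45.7 CPM in Sham 1, 3 and 4. PHx 1 was thus above PHx 3 in these markers and below it in Tnfaip3. The part of those cells in the Tnfaip3 values was not tested.

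Nfkbiz encodes IkB-zeta, an atypical family member that works in the nucleus and helps induce a subset of late genes. On chromosome 16 (55811377 to 55838641), it had 80.9, 221 and 379 RPKM in PHx 1, 3 and 4, against 144, 43.2 and 225 RPKM in Sham 1, 3 and 4. The groups overlapped widely, with Sham 4 above PHx 3 and Sham 1 above PHx 1. The spread was 5.04-fold in PHx and 5.25-fold in Sham, the widest in Sham among the 10. Its log2 fold change was 0.71 ± 0.80 (edgeR adjusted p = 0.739), and 0.11 without PHx 4. The libraries stood in the same order for Nfkbiz as for the sum of the immediate early genes, with Sham 3 lowest, then PHx 1, Sham 1, PHx 3, Sham 4 and PHx 4.

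Nfkbie encodes IkB-epsilon, an inhibitor that acts on complexes with p65 and c-Rel. On chromosome 17 (45555700 to 45563169), it had 18.3, 11.8 and 27.9 RPKM in PHx 1, 3 and 4, against 13.3, 13.4 and 9.27 RPKM in Sham 1, 3 and 4. Here PHx 1 and PHx 4 were above all Sham libraries and PHx 3 lay inside their range, whereas for Nfkbia and Tnfaip3 PHx 3 was above PHx 1. The log2 fold change was 0.65 ± 0.32 with an edgeR adjusted p of 0.461, and the smallest adjusted p over the 16 alternatives, whose highest was 0.972, was 0.180 in edgeR without PHx 3. Without PHx 4 the log2 fold change was 0.26. PHx 1 and PHx 4 were also the PHx libraries with the most neutrophil marker RNA, and the part of those cells was not tested.

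Nfkbib encodes IkB-beta, a more stable inhibitor that is lost slowly on stimulation. On chromosome 7 (28758251 to 28766644), it had 14.2, 12.6 and 24.9 RPKM in PHx 1, 3 and 4, against 15.6, 14.0 and 15.8 RPKM in Sham 1, 3 and 4. On TMM-scaled CPM PHx 1 and PHx 3 lay below all Sham libraries and PHx 4 above them. Without PHx 4 its log2 fold change was -0.22, compared with 0.16 ± 0.26 with all libraries (edgeR adjusted p = 0.825). Its span overlaps that of Ccer2 on the other strand.

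**Figure D2:**
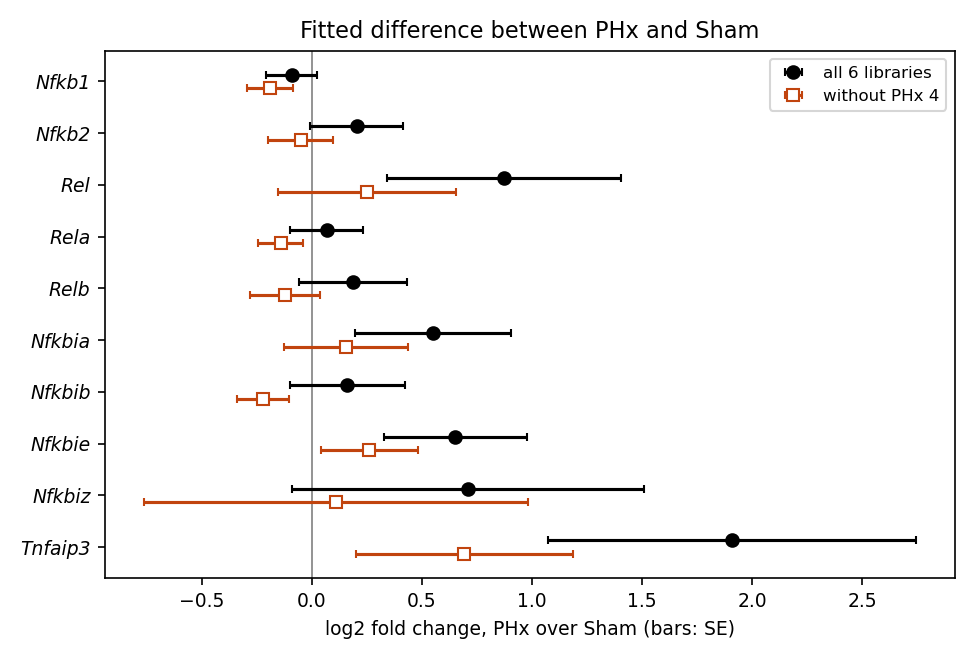
Log2 fold change (PHx over Sham) of the 10 genes from edgeR, with SE bars, from all 6 libraries (black circles) and without PHx 4 (open squares). The estimate for Tnfaip3 moves from 1.91 to 0.69 and the signs of Nfkb2, Rela, Relb and Nfkbib change when PHx 4 is left out.

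Apart from their shared peak in PHx 4, the members differed in which library was lowest, which was described after the values were seen and not tested. Nfkbia, Rel, Tnfaip3, Nfkbiz and Nfkb2 were lowest in Sham 3. Their deviations in Sham 3 from the mean over the 6 libraries were -0.76, -0.89, -1.62, -1.75 and -0.31 on the log2 CPM scale. In PHx 3 Nfkbia, Rel, Tnfaip3 and Nfkbiz were above their means, by 0.19 to 0.63 log2 CPM, whereas Rela, Relb, Nfkbib and Nfkbie were below theirs, with deviations of -0.22 to -0.41 log2 CPM. Rela, Relb and Nfkbib were lowest in PHx 3, and Nfkbie in Sham 4. As a description over 6 libraries, which share PHx 4 as their extreme point, Pearson's r of log2 CPM was 0.85 to 0.98 over the pairs among Nfkbia, Rel, Tnfaip3, Nfkbiz and Nfkb2, and 0.69 to 0.98 over the 5 libraries without PHx 4. Among Rela, Relb, Nfkbib and Nfkbie it was 0.70 to 0.99 with PHx 4 and -0.46 to 0.92 without it. In that set Rela and Nfkbib had 0.92 without PHx 4. Nfkbie had 0.64 with Relb, -0.08 with Rela and -0.46 with Nfkbib over those 5 libraries. With all 6 libraries these values were 0.90, 0.75 and 0.70. For pairs with 1 gene from each set r was 0.22 to 0.88 with PHx 4 and -0.73 to 0.46 without it. The sets were formed from these same libraries, so r within them does not test the grouping. Nfkb1, lowest in PHx 1, is in neither set. The median over all 45 pairs was 0.70 with PHx 4 and 0.11 without it.

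**Figure D3:**
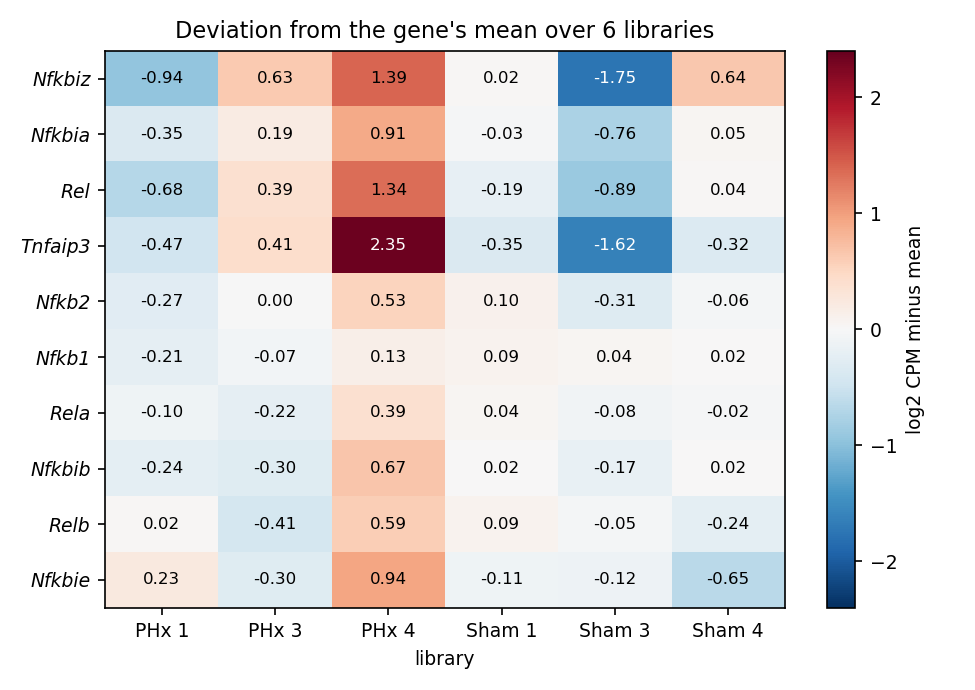
Deviation of each gene's log2 CPM from its mean over the 6 libraries, with PHx libraries in the left columns and Sham libraries in the right ones, red above and blue below the mean. The PHx 4 column is positive for all 10 genes, from 0.13 for Nfkb1 to 2.35 for Tnfaip3, and the blue cells of Sham 3 are deepest for Nfkbiz and Tnfaip3.

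Among 11027 other genes with a mean of at least 5 CPM, those closest to Nfkbia over the 6 libraries were Eif4a1, a helicase of translation initiation, Fosl2, a Fos family factor, and Rbm3, an RNA-binding protein, with r of 0.995, 0.994 and 0.993. For Nfkbiz they were Btg2 and Fosb, both immediate early genes, and Atf4, a stress-response factor, with r of 0.998, 0.996 and 0.994. For Rela they were Ninj1, Fam188b and Kptn, with r of 0.997, 0.997 and 0.992. With 6 libraries and 11027 genes compared, every member had a close match, the weakest being r of 0.989 for Relb, and these values only describe the libraries.

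**Figure D4:**
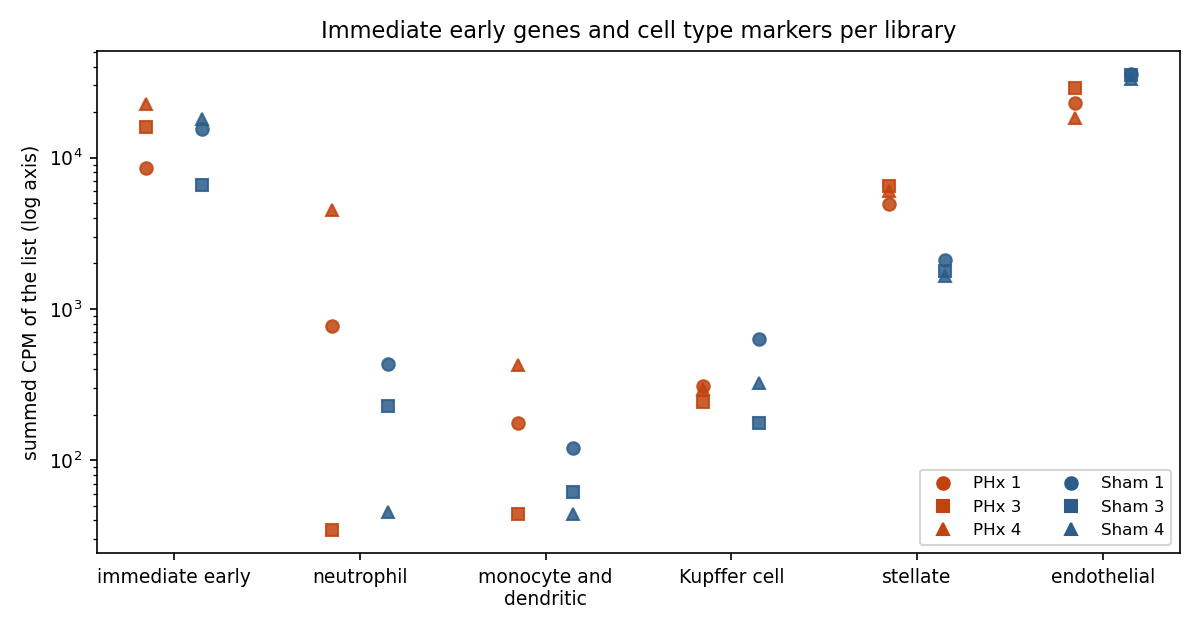
Summed CPM of the immediate early genes and of marker lists for 5 cell types, on a log axis, per library, with PHx left (orange) and Sham right (blue). Neutrophil markers spread from 34.4 to 4480 CPM in PHx and from 45.7 to 434 CPM in Sham, and immediate early genes were lowest in PHx 1 and Sham 3 of their groups.

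Other genes of the pathway were read in 5 lists by role, 90 genes of which 86 passed the filter on low counts. None was called by edgeR in either direction. In edgeR 15 of the 86 had an unadjusted p under 0.05, against 12.7% of all tested genes. DESeq2 called 7, against 4.24% of the genes with a DESeq2 adjusted p. In 58 of the 86 (67.4%) PHx 4 was the highest library, as it was for 26.6% of all tested genes.

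Among ligands 7 of 8 genes were tested and none passed, with a median log2 fold change of 0.93, or 0.27 without PHx 4. Il1b, the secreted interleukin 1 beta, had 89.9, 6.63 and 177 RPKM in PHx 1, 3 and 4, against 73.2, 28.6 and 12.7 RPKM in Sham 1, 3 and 4. It was lowest in PHx 3 and highest in PHx 4. Il1b is a known product of neutrophils and macrophages, and the part of those cells in its values was not tested. Il1a had 59.1, 79.3 and 123 RPKM in PHx 1, 3 and 4, against 56.6, 37.9 and 70.8 RPKM in Sham 1, 3 and 4, so PHx 3 and PHx 4 exceeded all Sham libraries. Tnf had a log2 fold change of 1.10 ± 0.67 and Tnfsf13b, which encodes the B-cell survival factor BAFF, of 1.06 ± 0.52, neither of which passed, and without PHx 4 these were 0.41 and 0.70.

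Of 10 receptors none passed in edgeR, and their median log2 fold change was 0.42, or 0.11 without PHx 4. Il1r1, the signalling receptor for interleukin 1, had 69.7, 42.1 and 96.3 RPKM in PHx 1, 3 and 4, against 44.0, 30.3 and 24.3 RPKM in Sham 1, 3 and 4, with a log2 fold change of 1.04 ± 0.35. Its adjusted p was 0.311 in edgeR and 0.0307 in DESeq2, and PHx 3 lay just below Sham 1. Tnfrsf1a, the main TNF receptor, was the most abundant at 198 to 251 RPKM in PHx and 221 to 247 RPKM in Sham, with a log2 fold change of -0.09 ± 0.13, or -0.20 without PHx 4. Ltbr, the lymphotoxin receptor of the non-canonical branch, had 81.2 to 85.02 RPKM in PHx and 90.4 to 101 RPKM in Sham, so all PHx libraries lay below all Sham libraries, with a log2 fold change of -0.24 ± 0.09 and an edgeR adjusted p of 0.364. Tnfrsf1b, the second TNF receptor, had a log2 fold change of 1.23 ± 0.54, or 0.55 without PHx 4.

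The 25 adaptors, ubiquitin ligases and kinases had a median log2 fold change of 0.05, or -0.04 without PHx 4, and none passed. Rbck1 and Rnf31 encode partners in the complex that builds linear ubiquitin chains on the way to the IkB kinase. Both had all PHx libraries below all Sham libraries, at 34.6 to 47.4 RPKM in PHx and 49.3 to 53.9 RPKM in Sham for Rbck1 and at 23.7 to 27.7 RPKM in PHx and 29.1 to 34.5 RPKM in Sham for Rnf31. Their edgeR adjusted p-values were 0.316 and 0.355. Ikbke, an inducible kinase related to the IkB kinases, had 3.37, 1.49 and 5.62 RPKM in PHx 1, 3 and 4, against 1.67, 1.51 and 0.957 RPKM in Sham 1, 3 and 4, and Myd88, the adaptor of Toll-like and interleukin 1 receptors, had a log2 fold change of 0.17 ± 0.23, or -0.03 without PHx 4.

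Of 18 tested further inhibitors none passed in edgeR, and their median log2 fold change was 0.00 against 0.03 for all tested genes, and -0.11 without PHx 4. Trib3, a stress-induced pseudokinase, had 2.63, 3.12 and 1.35 RPKM in PHx 1, 3 and 4, against 5.28, 6.04 and 6.54 RPKM in Sham 1, 3 and 4. All PHx libraries were below all Sham libraries, with a log2 fold change of -1.37 ± 0.31, and the adjusted p was 0.112 in edgeR and 0.000741 in DESeq2. Tnip1, which binds A20, had 40.8, 36.3 and 104 RPKM in PHx 1, 3 and 4, against 36.3, 47.7 and 36.7 RPKM in Sham 1, 3 and 4, so PHx 4 alone lay outside the Sham range at the top. Pdlim2, which promotes the breakdown of p65 in the nucleus, had a log2 fold change of 1.01 ± 0.34, Tax1bp1, another partner of A20, of 0.17 ± 0.11, and Nkiras1, which binds IkB-beta, of -0.33 ± 0.18.

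The 26 tested target genes had the highest median log2 fold change of the 5 lists, 1.02 with all libraries and 0.46 without PHx 4. None passed in edgeR, and 7 had an unadjusted edgeR p under 0.05, against 12.7% of all tested genes. DESeq2 called 5 (Ccl2, Cx3cl1, Plau, Saa3 and Cxcl1), against 4.24% of the genes with a DESeq2 adjusted p. Saa3 had a log2 fold change of 4.02 ± 1.12, or 3.04 without PHx 4. All its PHx libraries lay above all Sham libraries, with PHx 3 (5.35 RPKM) just above Sham 3 (4.61 RPKM). Cxcl1, whose groups overlapped, had 1.48 ± 0.57, or 1.01 without PHx 4. Their adjusted p-values were 0.260 and 0.380 in edgeR and 0.00504 and 0.0155 in DESeq2. Ccl2, a chemokine for monocytes, had 51.6, 39.3 and 76.5 RPKM in PHx 1, 3 and 4, against 25.3, 9.44 and 16.9 RPKM in Sham 1, 3 and 4. The PHx libraries lay above all Sham libraries, with a log2 fold change of 1.66 ± 0.42, or 1.34 without PHx 4, and an adjusted p of 0.197 in edgeR and 0.000303 in DESeq2. Cx3cl1, the membrane-bound chemokine fractalkine, had 4.09, 2.06 and 4.50 RPKM in PHx 1, 3 and 4, against 1.83, 1.31 and 1.41 RPKM in Sham 1, 3 and 4, again without overlap (log2 fold change 1.18 ± 0.31, adjusted p of 0.180 in edgeR and 0.00988 in DESeq2). Plau, the urokinase gene, was the opposite, with 12.9 to 25.3 RPKM in PHx and 29.7 to 34.5 RPKM in Sham and a log2 fold change of -0.85 ± 0.25 (adjusted p of 0.253 in edgeR and 0.0359 in DESeq2). The most abundant targets, Cxcl10 and Irf1, had log2 fold changes of 0.50 ± 0.85 and 0.57 ± 0.68, or 0.11 and -0.096 without PHx 4, and in both PHx 1 and Sham 3 were the lowest libraries. Collagen-producing stellate cells are a known source of Ccl2, and the 10 stellate markers summed to 4947 to 6443 CPM in PHx and 1655 to 2110 CPM in Sham, with 7 of the 10 called higher by edgeR, against 0.846% of all tested genes. Their part in the target genes was not tested.

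**Figure D5:**
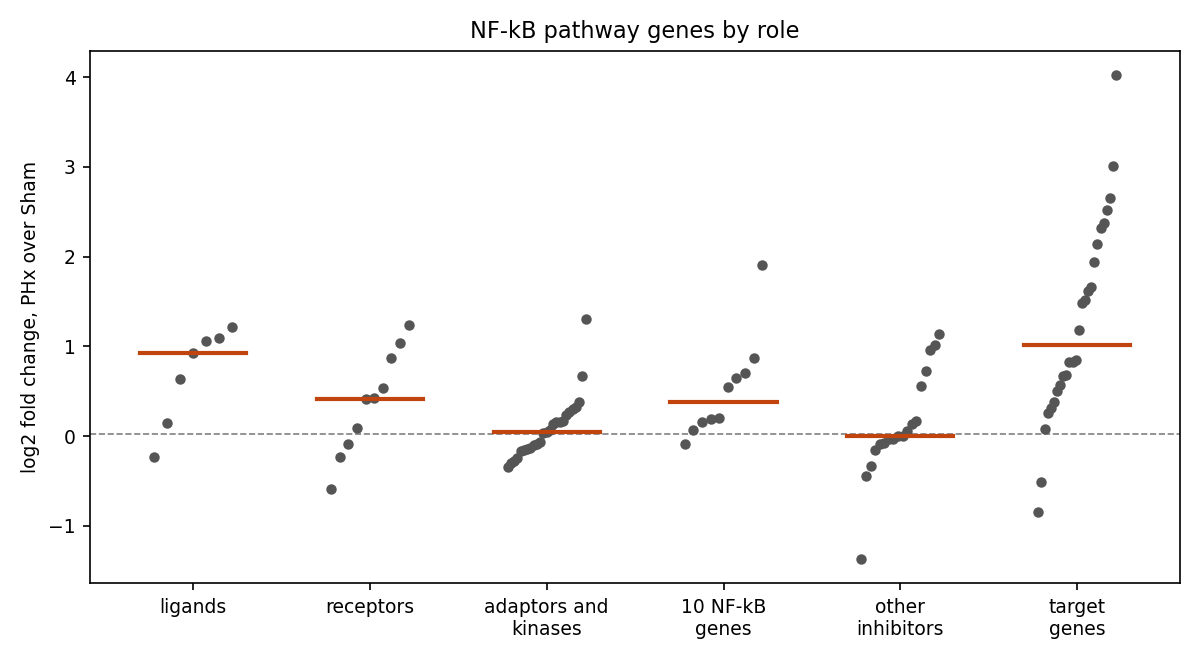
Log2 fold change (PHx over Sham) of each tested gene in the 5 pathway lists and of the 10 NF-kB genes, ordered by role from ligands to targets, with a red bar at the list median and a dashed line at the median of all tested genes (0.03). The target genes have the highest list median (1.02), and adaptors and other inhibitors sit near the dashed line (0.05 and 0.00).

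Immediate early genes were read beside the members because Nfkbiz and Nfkbia belong to the same fast class of transcripts. Of 16 genes none passed, with a median log2 fold change of 0.50 with all libraries and -0.05 without PHx 4. Fos had 559, 929 and 1270.2 RPKM in PHx 1, 3 and 4, against 964, 391 and 1106 RPKM in Sham 1, 3 and 4. Junb stood at 645, 996 and 1596 RPKM in PHx 1, 3 and 4, against 944, 449 and 1161 RPKM in Sham 1, 3 and 4. For both, Sham 3 was the lowest library, PHx 1 the next and PHx 4 the highest. Myc had 19.4, 29.2 and 148 RPKM in PHx 1, 3 and 4, against 17.2, 9.64 and 16.6 RPKM in Sham 1, 3 and 4, a log2 fold change of 2.16 ± 0.88 (edgeR adjusted p = 0.403) that was 0.70 without PHx 4. Klf6 and Egr3 had log2 fold changes of 0.79 ± 0.31 and 1.71 ± 0.72, or 0.40 and 0.99 without PHx 4, and did not pass.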

How the data were processed

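The authors deposited raw counts and RPKM values per gene for 6 libraries, and the RPKM values equal the counts scaled by gene length and by the summed counts (100% of values, relative tolerance 1e-06). The deposited length (in base pairs, an other unit) was used for that check. Per the submitters' processing notes, bcl2fastq, TopHat2 2.0.13 and mm10 were used. The counter, annotation release and use of strand are not given in the sources used here.

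Counts were tested with edgeR 4.0.16 (R 4.3.3): TMM scaling, filterByExpr, robust quasi-likelihood F-test, group as the only term, two-sided, Benjamini-Hochberg adjustment over 19033 genes, threshold 0.05. All 10 members passed the filter. SE was obtained from the fold change and its F statistic. CPM is TMM-scaled, and log2 CPM uses a prior count of 2. DESeq2 1.42.0, limma-voom (limma 3.58.1), other scalings and filters, a replicate block and leaving out libraries were alternatives. The model was tested on simulated data, where it called part of the set changes, those with the right sign. The simulated libraries varied independently and none was set apart as PHx 4 was. That test therefore does not show how the model handles such a library. Overlap between groups is read from TMM-scaled CPM.

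The members and lists were chosen with earlier results of these data known. Named genes are all members, the 3 smallest adjusted p and 2 highest mean RPKM of each list, and pathway genes called by DESeq2. Also named are a set of markers and the 3 genes closest to Nfkbia, Nfkbiz and Rela. Same-numbered libraries did not deviate together, so the numbers were not used as pairs in the main test. This does not exclude a shared day or batch, on which the labels are silent. Libraries differed by a chi-square of at least 49.9 per degree of freedom, so none was a copy. Promoter windows of 250 bases came from RefSeq (GRCm38.p6). No depth limited the members, whose lowest count was 652.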

Additional observations from a re-analysis of the deposited data

How the results depend on the processing

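No member was called under any of the alternatives, and 144 of 160 member values kept the sign they had with all libraries. The sign changed in 16. Without PHx 1 and PHx 4 log2 fold changes were -0.22 for Rela, -0.37 for Relb, -0.27 for Nfkbib and -0.039 for Nfkbie, with a lone PHx library assumed to vary like the others. Without PHx 4 and Sham 4 they were -0.043 for Nfkb2, -0.15 for Rela, -0.21 for Relb and -0.20 for Nfkbib. In DESeq2 without PHx 4 they were -0.056 for Nfkb2, -0.15 for Rela, -0.13 for Relb and -0.23 for Nfkbib. These 3 settings were chosen after seeing the data. When single libraries were left out, values ran from -0.052 to 0.36 for Nfkb2, -0.14 to 0.18 for Rela, -0.12 to 0.39 for Relb and -0.22 to 0.32 for Nfkbib. The remaining members kept their sign. They ran from 0.25 to 1.23 for Rel, 0.15 to 0.79 for Nfkbia and 0.26 to 0.89 for Nfkbie. For Nfkbiz the range was 0.11 to 1.21, for Tnfaip3 0.69 to 2.33 and for Nfkb1 -0.19 to -0.023. In each member the lowest value was the one without PHx 4.

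Over all genes 161 were higher and 3 lower. The counts were 359 and 30 with no filter, 728 and 84 in DESeq2, 591 and 71 in DESeq2 without PHx 4, 94 and 1 in limma-voom, 16 and 1 at an adjusted p under 0.01, 63 and 20 without PHx 1 and PHx 4, and 24 and 1 without PHx 4 and Sham 4. Leaving out each library gave 0 to 160 higher and 0 to 9 lower genes, and 1555 to 3141 genes at an unadjusted p under 0.05, against 2410 with all. Members at that level were 3 in DESeq2 (Rel, Nfkbie and Tnfaip3). In edgeR they were 3 without PHx 1 (Rel, Nfkbia and Tnfaip3), 1 without PHx 3 (Nfkbie) and 0 when any other single library was left out. A stricter threshold calls fewer genes by construction, and for the other settings, libraries left out included, the cause was not tested. With the replicate block 14 genes were higher and 1 lower, and no member was called. Same-numbered libraries had correlations of -0.04, -0.15 and -0.17 of their deviations. Those values show no shared deviation but cannot exclude that the numbers pair the libraries.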
